A study of Mus musculus with 64 samples.

Results

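Crym, Wfs1, Cartpt, Gpr155 and Coch are genes whose transcripts are graded across the striatum, and here they were read as a measure of where in the striatum a punch was taken. The 5 genes were chosen by name as gradient genes, with earlier results of these libraries known. They are 5 of the 23420 genes in the count tables. The tissue came from 16 untreated mice of about 50 days, 8 labelled Csnk1e knockout and 8 labelled wild type. Both hemispheres of a mouse were pooled, so each library is the average of a left and a right punch. The punch size stands as 3 mm in 1 of the labels and as 2.5 mm in another, and neither the sex of the mice nor the deleted part of Csnk1e is stated. Nothing in the labels records the position of a punch, so no position was available to set beside these levels.

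The striatum is made mostly of spiny projection neurons that carry either D1 or D2 dopamine receptors. Within both classes many transcripts change in level from the dorsal and lateral striatum, which receives sensorimotor cortex, to the ventral and medial striatum with the nucleus accumbens, which receives limbic input. Crym encodes mu-crystallin, which binds thyroid hormone, Wfs1 encodes wolframin of the endoplasmic reticulum membrane, and Cartpt encodes the precursor of the CART neuropeptides. These 3 genes are known for higher levels ventrally and medially. Gpr155 encodes a membrane protein of lysosomes that senses cholesterol, and Coch encodes the secreted protein cochlin. Gpr155 is known from the dorsal and lateral striatum, and Coch was placed beside it by hand, with earlier results of these libraries known, so its dorsal place is an assumption here.

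All libraries held between 22088005 and 30238947 gene reads. Levels are given as CPM, which scales the reads of a gene to a common library total after TMM normalization. The 4 lanes of a library differed by little more than counting error (chi-square over degrees of freedom 1 to 1.03) and were summed. Csnk1e, the targeted gene, did not follow the labels. Its means were 62.9 ± 18.6 CPM (SD, n = 8) under the knockout label and 61.6 ± 20.2 CPM (SD, n = 8) under the wild-type label. Each labelled group mixed a low and a high set of libraries. Labelled knockouts 6, 7 and 8 held 966 to 1268 Csnk1e reads, and labelled wild types 1, 2, 3 and 8 held 923 to 1290. All other libraries held 1802 to 2315. The labels were kept, and every difference between genotypes below is one between labels. Striatal neuron transcripts were abundant in every library, where 15 markers summed to 8268 to 13476 CPM. The 8 markers of cortical excitatory neurons summed to 521 to 1113 CPM and 10 oligodendrocyte markers to 8561 to 16397 CPM. The lists differ in size and in the abundance of their genes, so these sums do not give the shares of the cell types. Choroid plexus transcripts set the libraries labelled knockout 1 and wild type 7 apart from the other 14. Their 6 tested choroid plexus markers summed to 1620 and 2355 CPM, from lowest sums of 15.1 and 13.1 CPM within the same labelled groups.

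Gpr155 and Coch moved together between mice, so the stretches before their start sites are shown for comparison. RefSeq promoters on GRCm38.p6 matched 4 of the 5 members, all but Crym. The lines below give chr2:73386573-73386730 on the minus strand for Gpr155, which is 158 bases that end at the outermost GENCODE M21 start, and chr12:51593091-51593340 on the plus strand for Coch, which is 250 bases. Capitals mark the GC box GGGCGG, the letters bound by Sp family factors, searched on both strands with overlapping matches counted.
Gpr155: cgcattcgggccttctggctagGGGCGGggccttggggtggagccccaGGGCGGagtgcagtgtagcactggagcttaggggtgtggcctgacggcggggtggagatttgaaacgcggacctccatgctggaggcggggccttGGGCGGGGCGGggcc
Coch: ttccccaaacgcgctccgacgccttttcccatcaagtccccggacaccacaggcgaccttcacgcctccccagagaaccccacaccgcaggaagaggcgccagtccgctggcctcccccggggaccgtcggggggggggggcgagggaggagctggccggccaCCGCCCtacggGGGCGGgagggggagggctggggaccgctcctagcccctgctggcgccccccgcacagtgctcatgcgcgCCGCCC
The Gpr155 stretch held 4 matches, of which a pair overlap, and the Coch stretch held 3. Of 32851 RefSeq promoters of 250 bases, 32.7% held at least 1 GC box. The full 250 bases before the RefSeq start held 4 GC boxes for Wfs1, 1 for Cartpt, 7 for Gpr155 and 3 for Coch. The cAMP response element TGACGTCA was in neither stretch, was found once for Cartpt, and was in 1.55% of all promoters. A match of letters is a description and says nothing about binding.

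Per length of exon, 4 of the members were of similar abundance and Cartpt was far lower. Coch stood at 34.3 ± 5.96 RPKM (SD, n = 16), Crym at 33.3 ± 6.46 RPKM (SD, n = 16), Gpr155 at 28.3 ± 5.33 RPKM (SD, n = 16), Wfs1 at 19.3 ± 3.83 RPKM (SD, n = 16) and Cartpt at 1.51 ± 0.62 RPKM (SD, n = 16). Coch and Crym could not be ordered beyond their spread, since Coch was the higher in only 7 of 16 libraries. Crym was above Gpr155 in 12 of 16 libraries, a difference also within the spread, and Gpr155 was above Wfs1 in 15 of 16. Wfs1 was above Cartpt in all 16 libraries. RPKM divides by the union of GENCODE exons, so isoforms of other lengths would move these levels.

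Of the ventral genes, Crym lies on chromosome 7 of GRCm38 from 120186380 to 120202111 on the minus strand. In the labelled knockouts it ran from 99.9 to 149 CPM with a median of 129 CPM. In the labelled wild types it ran from 85.0 to 132 CPM with a median of 96.1 CPM. The highest library was labelled knockout 8 and the lowest was labelled wild type 3. The groups overlapped, with 4 labelled knockouts above every labelled wild type and 4 labelled wild types below every labelled knockout.

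Wfs1 lies on chromosome 5 from 36966104 to 36989205 on the minus strand. It ran from 54.6 to 103 CPM in the labelled knockouts with a median of 76.3 CPM, and from 45.4 to 83.2 CPM in the labelled wild types with a median of 70.9 CPM. The libraries labelled knockout 4 and 6 were highest and wild type 6 was lowest, and the groups overlapped over most of their range.

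Cartpt lies on chromosome 13 from 99898489 to 99901091 on the minus strand and was the rarest member, with 22 to 105 reads per library. Its labelled knockouts ran from 1.07 to 3.69 CPM with a median of 1.56 CPM, and its labelled wild types from 0.94 to 2.65 CPM with a median of 1.79 CPM. Labelled knockout 7 was highest and labelled wild type 1 lowest, and the groups overlapped. The lanes of a library held 3 to 30 Cartpt reads and differed by a median coefficient of variation of 26.9%, where counting alone would give 31.3%. A single Cartpt value is therefore much less precise than those of the other members, whose lanes differed by 2.81% to 3.47%.

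Gpr155 lies on chromosome 2 from 73341506 to 73386572 on the minus strand. It ran from 142 to 247 CPM in the labelled knockouts with a median of 202 CPM, and from 129 to 224 CPM in the labelled wild types with a median of 178 CPM. Labelled knockout 8 and 1 were highest and labelled wild type 2 and 4 lowest, with the groups overlapping. Coch lies on chromosome 12 from 51593341 to 51605771 on the plus strand. It ran from 83.8 to 130 CPM in the labelled knockouts with a median of 99.8 CPM, and from 74.5 to 138 CPM in the labelled wild types with a median of 99.1 CPM. Labelled wild type 7 and knockout 1 were highest in Coch and labelled wild type 4 and 2 lowest. The same pair of libraries thus held the bottom of both Gpr155 and Coch.

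**Figure D1:**
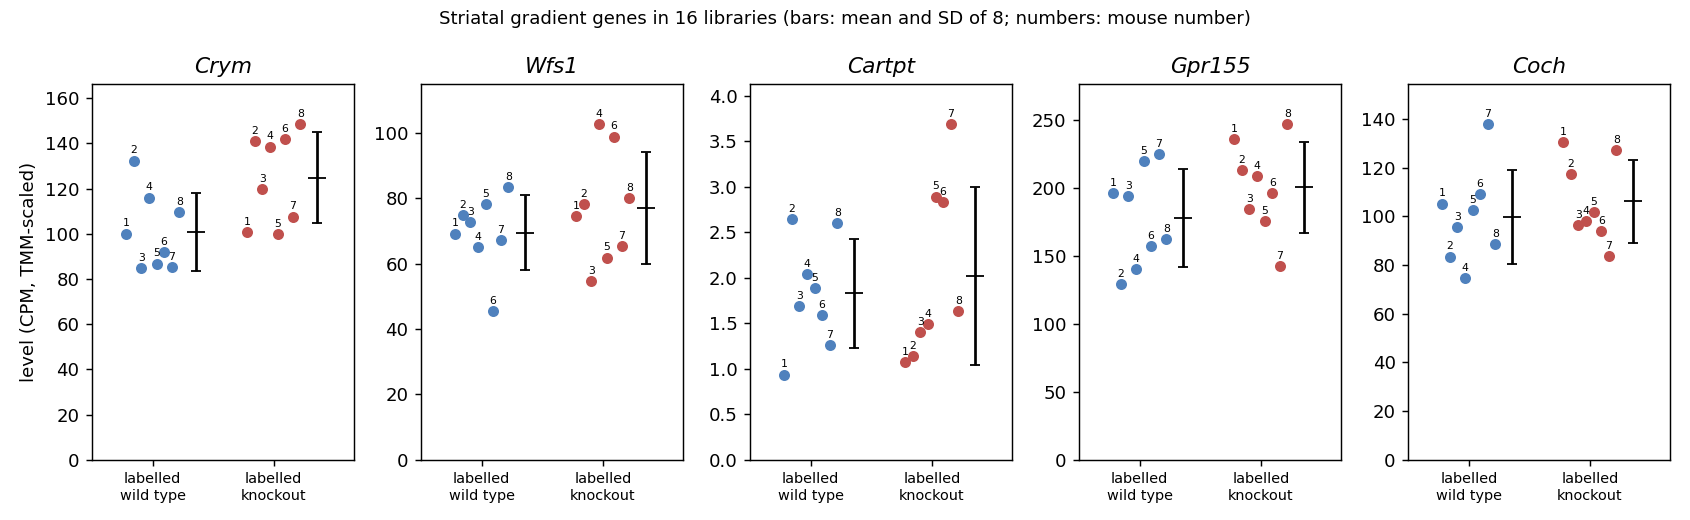
Level of each member in every library on TMM-scaled CPM (y axis, starting at 0), by labelled genotype, with the mouse number beside each point and bars for the mean and SD of 8 libraries. The groups overlap for every member, and Crym sits highest in labelled knockouts 2, 4, 6 and 8, between 139 and 149 CPM.

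The members varied between mice more than most genes did. Over 12273 genes with a mean of at least 100 reads, the median coefficient of variation beyond counting error was 6.70%. It was 19.3% for Crym, 19.7% for Wfs1, 18.8% for Gpr155 and 17.3% for Coch, which rank 455, 428, 493 and 673 from the most variable. Cartpt had 38.1%, but is below the read minimum and was not ranked. Cnr1, the cannabinoid receptor gene that is also higher dorsally and laterally, had 24.8% and rank 193. Ppp1r1b, 1 of the striatal neuron markers, had 15.4% and rank 948, so a wide spread was not particular to the gradient genes.

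Gpr155 and Coch rose and fell together. Coch was placed beside Gpr155 with earlier results of these libraries known, so this likeness cannot bear out its dorsal place. Each member's log2 CPM was set against every other gene tested, and a gene was called at an adjusted p under 0.05. Coch rose with Gpr155 by 0.72 log2 per log2 unit of Gpr155 (95% interval 0.47 to 0.96, adjusted p = 0.000624 by edgeR), and Gpr155 rose with Coch by 0.94 (95% interval 0.61 to 1.27, adjusted p = 0.00476 by edgeR). The ratio of their CPM values moved 1.49-fold between its lowest and highest library, while Gpr155 itself moved 1.91-fold. Over the 16 libraries Pearson's r was 0.82 (permutation p = 0.00017, adjusted p = 0.0017 over 10 pairs of members) and Spearman's rho was 0.82 (permutation p = 0.00013, adjusted p = 0.0013). Without the libraries labelled wild type 2 and 4, the farthest from the Gpr155 median, r was 0.74. It was 0.88 within the 8 labelled knockouts (exact permutation p = 0.00315), 0.76 within the 8 labelled wild types (exact permutation p = 0.0241), and 0.79 without the libraries labelled knockout 1 and wild type 7.

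Cnr1 moved with both and more steeply. Its levels ran from 288 to 673 CPM, lowest in labelled wild type 4 and highest in labelled knockout 1. Per log2 unit of Gpr155 it rose by 1.22 (95% interval 0.98 to 1.47, adjusted p = 4.4e-06 by edgeR), with r = 0.93, and per log2 unit of Coch by 1.33 (95% interval 0.97 to 1.70, adjusted p = 0.00119 by edgeR), with r = 0.88. Without the choroid-rich libraries these slopes were 1.16 and 1.48, both still called. The slope along Coch lost its call with the cortical score as a covariate, at 1.09 and adjusted p = 0.149 by edgeR.

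Cartpt ran against Gpr155 and Coch. It was highest in labelled knockout 7, which ranks 14 of 16 in both Gpr155 and Coch. Per log2 unit of Gpr155 it fell by 1.26 (95% interval -2.04 to -0.49, adjusted p = 0.0252 by edgeR), and per log2 unit of Coch it fell by 1.60 (95% interval -2.50 to -0.70, adjusted p = 0.0401 by edgeR). The ratio of Gpr155 to Cartpt CPM ran from 38.5 to 220, a 5.72-fold range. Pearson's r was -0.62 with Gpr155 (permutation p = 0.011, adjusted p = 0.0366 over 10 pairs) with rho -0.61 (permutation p = 0.0145, adjusted p = 0.0484), and r was -0.59 without labelled knockout 7 and wild type 1. With Coch r was -0.66 (permutation p = 0.00628, adjusted p = 0.0314) with rho -0.71 (permutation p = 0.0029, adjusted p = 0.0145), and -0.67 without the same libraries. Neither call was firm: the slope along Gpr155 was lost without labelled knockout 1 or 7, at adjusted p = 0.0545 and 0.106 by edgeR, and without both choroid-rich libraries at 0.092. The slope along Coch was lost without any 1 of labelled knockouts 1, 2, 7 and 8 and labelled wild types 2, 3, 7 and 8, at adjusted p = 0.0504 to 0.118 by edgeR, and at 0.176 without both choroid-rich libraries. By limma-voom it stood at adjusted p = 0.0517.

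Among the 3 ventral genes no pair passed the test as measured. Crym and Wfs1 had r = 0.49 (permutation p = 0.0523, adjusted p = 0.131) with rho 0.49, and r was 0.37 without labelled knockouts 6 and 8. Crym and Cartpt had r = 0.13, and Wfs1 and Cartpt had r = 0.09. With the striatal neuron score subtracted from both genes r was higher, at 0.58 for Crym and Wfs1 (permutation p = 0.0182, unadjusted). It was then 0.52 for Crym and Cartpt (permutation p = 0.0415) and 0.50 for Wfs1 and Cartpt (permutation p = 0.0524), both unadjusted. Subtracting the same score from both genes of a pair by itself gives them a shared part. The permutation does not allow for that part, so these values cannot show whether the genes moved together. Against Gpr155 and Coch, Crym and Wfs1 had r over all libraries of -0.01 for Crym and Gpr155, -0.16 for Crym and Coch, 0.36 for Wfs1 and Gpr155 and -0.02 for Wfs1 and Coch. As measured over all libraries, none of these 7 pairs was past an adjusted p of 0.05. Within labels, Crym and Gpr155 had r = -0.87 in the 8 labelled wild types (exact permutation p = 0.00749) and 0.46 in the 8 labelled knockouts (exact permutation p = 0.254). Crym and Coch had -0.75 in the labelled wild types (exact permutation p = 0.0287) and 0.13 in the labelled knockouts (exact permutation p = 0.755). With the striatal score subtracted, r was -0.38 for Wfs1 and Gpr155 and -0.42 for Wfs1 and Coch (permutation p = 0.145 and 0.106). The difference between labels was not tested, and Csnk1e does not follow the labels that define these groups.

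**Figure D2:**
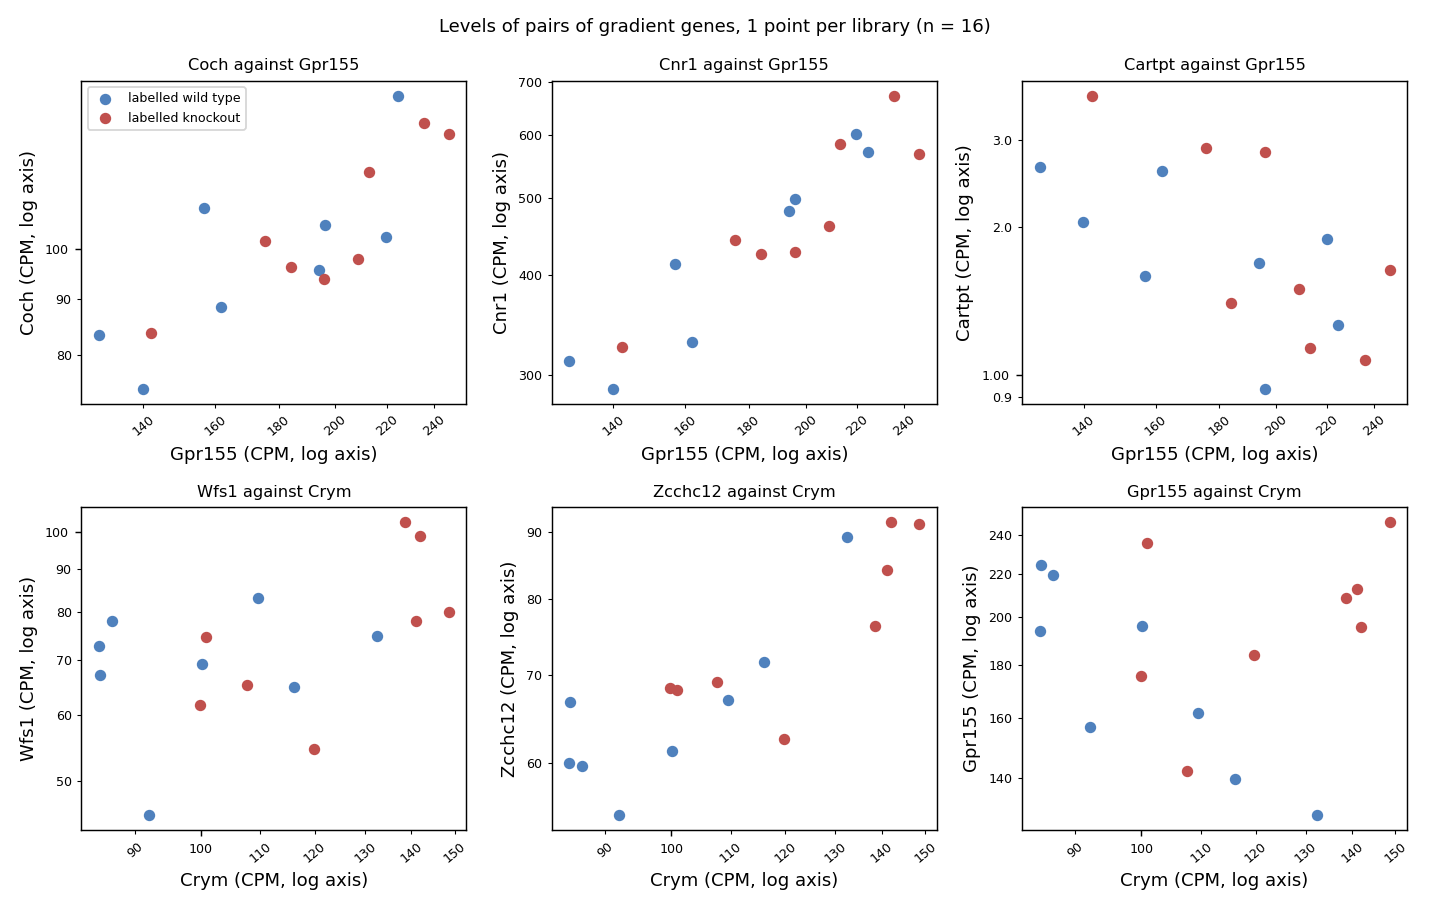
Levels of pairs of gradient genes in CPM on log axes, 1 point per library, coloured by labelled genotype. Coch and Cnr1 climb with Gpr155, Cartpt falls with it, Zcchc12 climbs with Crym, and Crym and Gpr155 show no common line over the 16 libraries.

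Of the 20 ordered pairs of members, 4 were called, against a background of called genes that differed widely with the member used. Along Gpr155 2465 of 15445 other genes (16%) were called, 1301 rising (8.42%) and 1164 falling (7.54%), so a call along Gpr155 is common. Along Coch 748 genes (4.84%) were called, 374 in each direction (2.42%). Along Wfs1 469 genes (3.04%) were called, along Crym 2 genes (0.0129%) and along Cartpt 0 genes (0%). Cartpt had 1536 genes at an unadjusted p under 0.05 by edgeR, and limma-voom also called 0. Of the genes called along Coch, 643 were also called along Gpr155, which is 86% of those of Coch and 26.1% of those of Gpr155. Adjustment for a marker score ended the calls between members: 0 of 20 were called with the striatal neuron score as a covariate and 0 of 20 with the cortical score. Coch along Gpr155 then had slopes of 1.10 and 0.68, at unadjusted p = 0.000145 and 0.00263 and adjusted p = 0.0814 and 0.154 by edgeR. In these fits only 11 and 35 genes were called along Gpr155, so the adjustment over all genes was also stricter than in the main fit. Cnr1 along Gpr155 had 1.24 at adjusted p = 0.0687 with the striatal score and remained called with the cortical score.

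Of the other ventral genes, Zcchc12 was the 1 that passed the test along Crym. The list was chosen with earlier results of these libraries known, so its counts and median are a description and no independent support. Of 11 listed, Calcr was too low to test. All 10 that were tested had a slope and an r above 0 along Crym, where 49.0% of all genes had an r above 0, with a median of 0.59 log2 per log2 unit against -0.005 over all genes tested, and 1 of 10 was called beside the 0.0129% of all genes. That gene was Zcchc12, a zinc finger gene of the ventral striatum, at 54.7 to 91.5 CPM, lowest in labelled wild type 6 and highest in labelled knockout 6. It rose by 0.72 per log2 unit of Crym (95% interval 0.50 to 0.93, adjusted p = 0.021 by edgeR), with r = 0.86, and is second of 15445 genes by r. Hap1, which encodes huntingtin-associated protein, had r = 0.81 and rank 7 with a slope of 0.66 and adjusted p = 0.0666 by edgeR. Dlk1, a Notch pathway ligand, had r = 0.63, Drd3, the D3 dopamine receptor gene, 0.61, and the imprinted gene Peg10 0.59. Stard5 and Lypd1 were lowest at 0.15 and 0.11. The Zcchc12 call was lost without labelled knockout 6, labelled knockout 8 or labelled wild type 2, at adjusted p = 0.0579, 0.079 and 0.0524 by edgeR, and at 0.15 with the labelled genotype as a covariate.

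Along Wfs1, Dlk1 and Hap1 were the ventral genes that passed the test. The list is the same, chosen with earlier results of these libraries known, so its counts are again a description. Of the 10 ventral genes 8 had a slope and an r above 0 along Wfs1, where 51.1% of all genes had an r above 0, with a median of 0.51 against 0.007 over all genes, and 2 of 10 rose past the threshold beside 1.56% of all genes. Dlk1, at 1.46 to 7.83 CPM, rose by 1.78 per log2 unit of Wfs1 (95% interval 0.81 to 2.74, adjusted p = 0.0418 by edgeR). Hap1 rose by 0.52 (95% interval 0.23 to 0.81, adjusted p = 0.0455 by edgeR). Both lay close to the threshold and were lost by limma-voom at adjusted p = 0.0576 and 0.0541. By edgeR they were lost with the labelled genotype as a covariate (adjusted p = 0.0609 and 0.101), with the library number (0.0538 and 0.0546) and with the cortical score (0.0818 and 0.0536). The Dlk1 call was lost without any 1 of labelled knockouts 3, 5, 6, 7 and 8 and labelled wild types 1, 3 and 6, and the Hap1 call held only without labelled wild type 2, 5, 7 or 8 among the 16 fits without 1 library. Without labelled wild type 6, the library lowest in Wfs1, they stood at adjusted p = 0.266 and 0.267 by edgeR. Along Cartpt 9 of 10 had a slope above 0 and 0 were called.

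Along Gpr155 and Coch the ventral list was mixed. Along Gpr155 4 of 10 ventral genes had a slope above 0. Of the 10, 1 fell past the threshold, close to the 7.54% of all genes that did. That gene was Lypd1, at 6.06 to 8.70 CPM, which fell by 0.38 per log2 unit (95% interval -0.62 to -0.14, adjusted p = 0.0284 by edgeR). That call was lost without labelled knockout 1 or 7 or labelled wild type 2 or 4, at adjusted p = 0.0596, 0.0974, 0.103 and 0.0668 by edgeR. It was also lost without both choroid-rich libraries (adjusted p = 0.0834 by edgeR), with the labelled genotype as a covariate (0.0559), with Lypd1 and Gpr155 read from different flow cells (0.181), and with the striatal or the cortical score (0.405 and 0.419). Along Coch 3 of 10 had a slope above 0 and 0 were called.

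**Figure D3:**
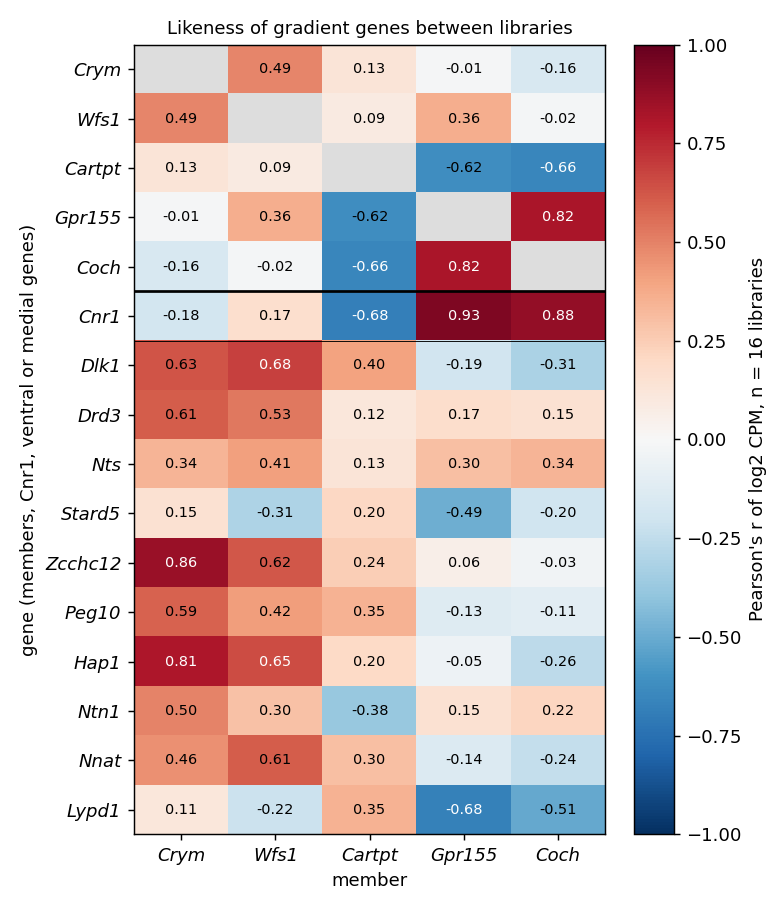
Pearson's r of log2 CPM over 16 libraries between each member (columns) and the members, Cnr1 and 10 ventral genes (rows), with grey for a gene against itself. Cnr1 is at 0.93 with Gpr155 and 0.88 with Coch, and the ventral genes are all above 0 with Crym, up to 0.86 for Zcchc12.

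The genes most like each member over the 16 libraries were taken from 14237 genes with a mean of at least 1 CPM. Those of Gpr155 were Eif2c4, an Argonaute gene, with r = 0.97, Aff3 with 0.95, B3gnt2 with 0.95, Rgs7bp, a partner of striatal RGS proteins, with 0.94, and Lrrk2, the leucine-rich repeat kinase of familial Parkinson disease, with 0.94. The most opposed to it were Vps37d and Emx1, a cortical transcription factor, both with r = -0.90, and Cdca7 with -0.90. Coch was most like Phex, an endopeptidase, with 0.91, Lipo1 with 0.91, Me2, a mitochondrial malic enzyme, with 0.89, Wwp1, a ubiquitin ligase, with 0.89, and Zzz3 with 0.88. It was most opposed to Maz with -0.91, Pik3r2 with -0.90 and Ppp2r5b with -0.89.

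Crym was most like Pnck, a calmodulin-dependent kinase, with 0.86 and adjusted p = 0.021 by edgeR, then Zcchc12 with 0.86, Fam169b with 0.83, Zcchc18 with 0.83 and Scn9a, a sodium channel, with 0.82. It was most opposed to Apbb2 with -0.81, Paox with -0.80 and Aga with -0.80. Wfs1 was most like Lrrc16b with 0.92, Fbf1 and Sap130 with 0.90, Plxnd1, a semaphorin receptor, with 0.89, and Spata13 with 0.88. It was most opposed to Eps15, an endocytic adaptor, and the protease gene Prss23, both with -0.91, and Gm10635 with -0.89. Cartpt was most like Cbln4, a cerebellin, with 0.83, then Trappc3 with 0.81 and Deaf1, Dnajc11 and Krt12 with 0.80, and most opposed to Fam168a, Tagap and Mon1b with -0.82, -0.82 and -0.81. These r values order genes and carry no test beyond the fits above.

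The striatal neuron markers followed Gpr155. All 15 rose with it past the threshold, beside 8.42% of all genes, with a median slope of 0.68 log2 per log2 unit against 0.01 over all genes. The most abundant, Gng7, a G protein subunit, and Pde10a, a striatal phosphodiesterase, rose by 0.63 and 0.93, at adjusted p = 0.000237 and 0.000198 by edgeR. The mean score of the list had r = 0.88 with Gpr155 and rho 0.89 (permutation test, adjusted p = 0.00165 and 0.00275 over 55 relations of members and lists), and r = 0.85 without the 2 farthest libraries. Within labels r was 0.90 in the labelled knockouts and 0.86 in the labelled wild types. All 15 also rose whichever of the 16 libraries was left out, but 1 of 15 rose with the cortical score as a covariate. In bulk tissue fewer striatal neurons and less RNA per striatal neuron cannot be told apart. This list, like the other marker lists, was chosen with earlier results of these libraries known.

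Cortical excitatory markers went the opposite way. Of 8 markers 6 fell along Gpr155, beside 7.54% of all genes, with a median slope of -0.90. Slc17a7, the vesicular glutamate transporter, fell by 1.05 per log2 unit (95% interval -1.42 to -0.68, adjusted p = 0.00077 by edgeR), and Tbr1, a transcription factor of cortical projection neurons, fell by 0.92 (95% interval -1.40 to -0.45, adjusted p = 0.00966 by edgeR). The score had r = -0.78 with Gpr155 and rho -0.82 (permutation test, adjusted p = 0.0143 and 0.00659), r = -0.86 without the 2 farthest libraries, and -0.68 and -0.86 within labels. With the striatal neuron score as a covariate 0 of 8 cortical markers fell. The part of this cortical signal, and of the striatal neuron signal, in the shared movement of Gpr155, Coch and Cartpt was not tested beyond the 2 covariate fits. After the striatal score was subtracted from both genes, r of Gpr155 and Coch was 0.63 (permutation p = 0.00799). By the same subtraction r of Cartpt and Gpr155 was -0.49 (permutation p = 0.0535), and r of Cartpt and Coch was -0.11 (permutation p = 0.686). The subtracted score is shared by both genes of a pair, and the permutation does not allow for it.

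Coch followed these lists less firmly. Of the striatal neuron markers 3 of 15 rose along it, beside 2.42% of all genes, a count that ran from 0 to 9 when 1 library was left out, lowest without labelled wild type 4 and highest without labelled wild type 6. Of the cortical markers 3 of 8 fell, a count of 1 without labelled knockout 1 or labelled wild type 4 or 7 and of 6 without labelled knockout 6. The scores had r = 0.61 and -0.65 with Coch (permutation test, adjusted p = 0.104 and 0.0672). Its largest r with any list was 0.68, with the meningeal fibroblast score (permutation test, adjusted p = 0.0602). For that score rho was 0.51 (permutation test, adjusted p = 0.223), and r was 0.45 without the 2 farthest libraries. All 6 tested choroid plexus markers rose along both Coch and Gpr155, among them Ttr, the transthyretin gene, by 9.35 and 9.05 log2 per log2 unit. Without the libraries labelled knockout 1 and wild type 7, 0 rose along Coch and 1 along Gpr155, and over those 14 libraries the choroid plexus score had r = -0.22 with Coch and -0.04 with Gpr155. Meningeal fibroblast markers had 2 of 5 rising along Coch and 0 of 5 without those libraries, from 0 to 4 when 1 library was left out, lowest without labelled wild type 7 and highest without labelled knockout 8. The same exclusion left 15 of 15 striatal neuron markers rising and 4 of 8 cortical markers falling along Gpr155, and 0 and 0 along Coch.

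Crym had r = 0.07 with the striatal neuron score and -0.07 with the cortical score. Its largest r with any list was -0.53, with the oligodendrocyte score (permutation p = 0.034, adjusted p = 0.159), with rho -0.42 (adjusted p = 0.36) and r = -0.27 without the 2 farthest libraries. All 10 oligodendrocyte markers had a slope below 0 along Crym and 0 were called, among them Mbp, a myelin protein gene, at -0.52. Under the knockout label their log2 fold changes had a median of -0.17 and 0 were called. The part of oligodendrocyte RNA in the Crym values was not tested. Wfs1 had r = 0.58 and -0.53 (permutation test, adjusted p = 0.112 and 0.159), and of the striatal neuron markers 2 of 15 rose, beside 1.56% of all genes, Penk, the enkephalin precursor, by 0.52 and Adcy5, an adenylyl cyclase, by 0.52, at adjusted p = 0.0337 and 0.0412 by edgeR. That count ran from 0 without labelled knockout 3, 5 or 6 or labelled wild type 6 to 4 without labelled wild type 2. Of the cortical markers 1 of 8 fell along Wfs1, beside 1.48% of all genes, which was Tbr1 at -0.87 and adjusted p = 0.0408 by edgeR. Wfs1 also followed 4 genes listed as basal forebrain markers, Nkx2-1, Lhx8, Gbx1 and Chat. Their score had r = 0.71 with Wfs1 and rho 0.64 (permutation test, adjusted p = 0.0335 and 0.102), and r = 0.68 without the 2 farthest libraries. Whether these transcripts came from cells of the striatum or from neighbouring tissue was not tested. These 4 markers summed to 17.2 to 35.2 CPM per library. The 1 of 4 that was called, beside 1.56% of all genes, was Gbx1, with a slope of 1.54, while Chat, the acetylcholine synthesis gene, and Lhx8 had 0.44 and 0.69 and were not called. Gbx1 was rare, with means of 0.73 and 0.61 CPM under the knockout and wild-type labels. Gpr155 had r = 0.59 and rho 0.66 with the same score (permutation test, adjusted p = 0.112 and 0.102). Along Gpr155 1 of 4 was called, beside 8.42% of all genes, which was Lhx8 at adjusted p = 0.0426 by edgeR. Cartpt had r = -0.43 with the striatal neuron score and 0.28 with the cortical score, neither past the threshold. Of the 55 relations, 3 were past an adjusted p of 0.05, with Gpr155 in 2 of them.

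**Figure D4:**
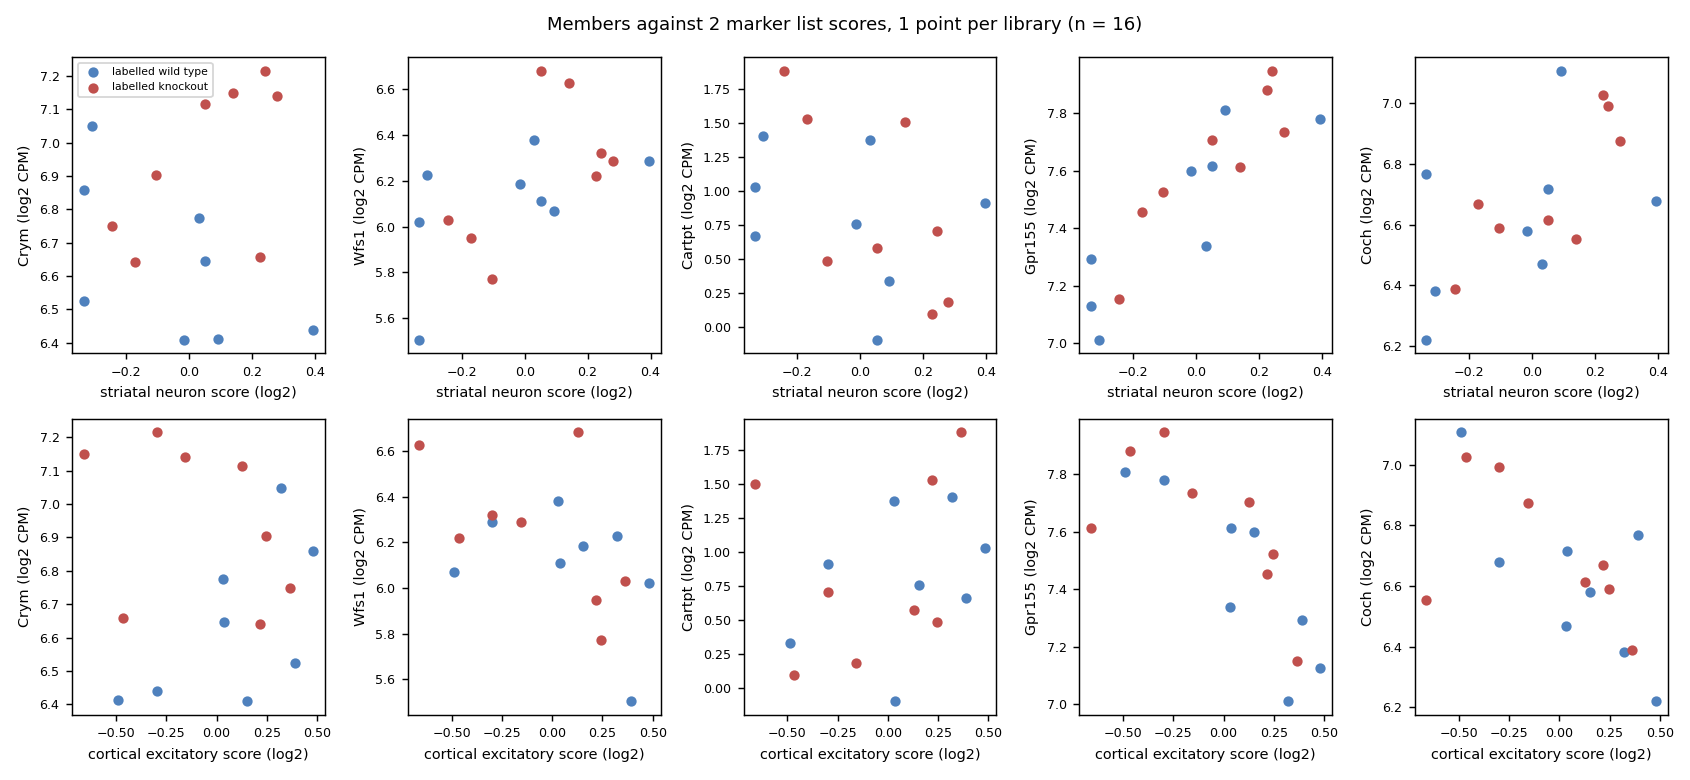
Level of each member (log2 CPM, y axes) against the mean centred log2 CPM of 15 striatal neuron markers (top) and of 8 cortical excitatory markers (bottom), 1 point per library. Gpr155 climbs with the striatal score at r = 0.88 and falls with the cortical score at r = -0.78, and Crym shows r of 0.07 and -0.07.

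Between the labelled genotypes no member passed the test. Over all 15446 genes edgeR called 0 (0%), with 526 (3.41%) at an unadjusted p under 0.05, and DESeq2 and limma-voom also called 0. Crym came nearest, with means of 125 ± 20.1 CPM (SD, n = 8) under the knockout label and 101 ± 17.2 CPM (SD, n = 8) under the wild-type label. Its log2 fold change was 0.31 (SE 0.10, 95% interval 0.09 to 0.53, unadjusted p = 0.00853, adjusted p = 0.997 by edgeR), and all 8 labelled knockouts were above the labelled wild type median. An exact permutation test over all labellings of 8 of the 16 libraries gave an unadjusted p of 0.0258. The fold change was 0.26 to 0.37 when 1 library was left out, with adjusted p no lower than 0.842 by edgeR.

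The other members had fold changes above 0 with intervals that held 0. Wfs1 had 0.15 (95% interval -0.11 to 0.41), Cartpt 0.14 (-0.41 to 0.70), Gpr155 0.17 (-0.08 to 0.42) and Coch 0.09 (-0.14 to 0.32), each with adjusted p = 0.997 by edgeR. These intervals leave room for changes of either sign. Cnr1 had 0.16 (-0.18 to 0.50). Of the 10 other ventral genes 7 had a fold change above 0 with a median of 0.09, and Zcchc12 at 0.20 (0.01 to 0.40) and Hap1 at 0.18 (-0.01 to 0.38) were next to Crym in size for their error. The targeted gene does not follow these labels, so these values describe the labels and not a checked loss of Csnk1e.

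**Figure D5:**
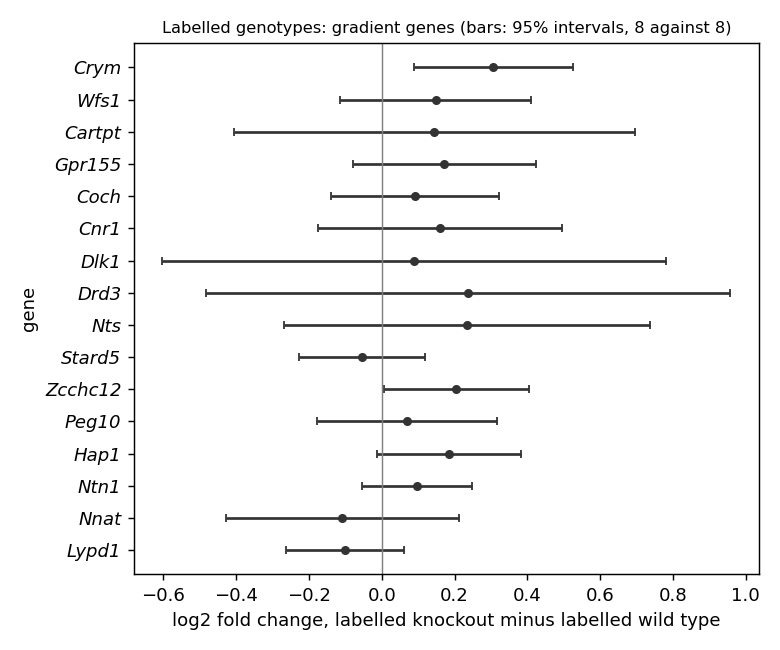
Log2 fold change of labelled knockouts minus labelled wild types (x axis) with 95% intervals for the members, Cnr1 and 10 ventral genes, 8 libraries against 8. The intervals of Crym, at 0.09 to 0.53, and of Zcchc12, at 0.01 to 0.40, lie above 0, and no gene passed the test adjusted over all genes.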

How the data were processed

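The authors deposited unnormalized read counts for each gene, as whole numbers, for 16 libraries in 4 lanes each, or 64 files. HTSeq 0.6.1p1, TopHat2 2.0.0 and the build mm10 are named, with no role given, per the submitters' processing notes. Per the labels' protocols, libraries were stranded and poly(A) selected, with single-end reads of 50 bases. Neither the annotation nor the strand option used for counting is stated, so overlapping and antisense genes may share reads. Labels name separate mice.

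Lanes were summed. Of 23420 genes, 15446 kept by filterByExpr were fitted with edgeR 4.0.16 in R 4.3.3 (TMM, quasi-likelihood F test, two-sided, Benjamini-Hochberg over all genes, called under 0.05). One fit compared labelled genotypes; in 5 fits the log2 CPM (prior count 2) of a member was the covariate for every other gene. Limma 3.58.1 and DESeq2 1.42.0 were alternatives. Slopes are log2 per log2. A list score is the mean centred log2 CPM. Permutation tests used 100000 resamples, or all orders within a labelled group, with scipy 1.17.1. Positions are from GENCODE M21. Reads carry no molecular identifiers, and the spread between mice was used as the error. The fits were tested on simulated data.

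The members and all lists were chosen with earlier results of these data known. Named genes are the members, Csnk1e, the other gradient genes tested, the 5 genes of highest and 3 of lowest r per member, and the 2 most abundant members of a list where a result touches it; other list genes named were chosen after their values were seen. The list counts and the slopes of Zcchc12, Hap1, Dlk1 and Lypd1 were put through the alternatives after the data were seen.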

Additional observations from a re-analysis of the deposited data

Results flagged for a closer look

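Among 54 groups of 8 libraries, covering the levels of the members and the other gradient genes and the marker list scores, 5 held a library set apart from the rest of its group by more than Dixon's 95% value, where chance flags about 1 in 20 groups. None of the 5 was a level of a member. Nts, the neurotensin gene, stood at 6.01 CPM in labelled wild type 7 against 2.28 to 3.45 CPM in the other labelled wild types. Peg10 stood at 43.0 CPM in labelled wild type 2, the library lowest in Gpr155, against 22.6 to 26.8 CPM. Lypd1 stood at 8.51 CPM in labelled knockout 7, the library highest in Cartpt, against 6.06 to 7.01 CPM. The choroid plexus score stood at 3.91 in labelled knockout 1 against -1.31 to 0.43, and at 4.50 in labelled wild type 7 against -1.27 to 0.80. These last libraries were among the 3 highest in both Gpr155 and Coch, and the part of choroid plexus RNA in those levels was not tested.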

How the results depend on the processing

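Between labelled genotypes 0 genes were called under all 13 alternatives and all 16 fits without 1 library. The member fold changes kept their sign apart from Cartpt, which was -0.022 on flow cell 2 alone and -0.043 to 0.24 with 1 library left out, below 0 without labelled knockout 7. Dlk1 was -0.063 on flow cell 1 alone. Leaving out 1 library gave -0.14 to 0.37 for Dlk1 (below 0 without labelled knockout 6 or labelled wild type 5 or 6), -0.011 to 0.46 for Drd3 (labelled knockout 8) and -0.083 to 0.016 for Stard5 (labelled wild type 2). The count at an unadjusted p under 0.05 was 323 with the library number as a covariate and 362 to 909 without 1 library, highest without labelled knockout 7.

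Of the 20 ordered pairs, 0 were called with the striatal score or the cortical score as a covariate and 2 without the libraries labelled knockout 1 and wild type 7. It was 2 to 4 without 1 library, with 2 left without labelled knockout 1 or 7. Coch along Gpr155 kept its call in all 16 of those fits. Genes called along Gpr155 came to 11 and 35 with the 2 scores as covariates. Along Coch the count was 76 and 0 with them, 21 without the choroid-rich libraries, and 248 to 1223 without 1 library, by over 1.5 times without labelled knockout 1, 7 or 8 or labelled wild type 2, 3, 4, 6 or 7. Along Wfs1 it was 27 and 32 with the scores, 186 with the labelled genotype as a covariate, 309 with the member and the responses from different flow cells, and 7 to 637 without 1 library, by over 1.5 times without labelled knockout 2, 3, 5 or 6 or labelled wild type 3, 4 or 6. Along Crym it was 6 and 15 with the scores, 0 with the labelled genotype and 0 to 5 without 1 library, and along Cartpt 0 to 1.

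No pair correlation that turned had passed the test: Crym and Cartpt to -0.23 in the labelled knockouts and -0.014 without the choroid-rich libraries, Crym and Gpr155 to 0.46 and 0.16, Crym and Coch to 0.13 and 0.11 and to 0.035 with the striatal score subtracted, Wfs1 and Cartpt to -0.10 in the labelled knockouts, Wfs1 and Gpr155 from 0.36 to -0.38 with the striatal score subtracted, and Wfs1 and Coch to 0.11 in the labelled knockouts, 0.10 without the 2 farthest libraries and 0.0036 without the choroid-rich ones. The cause was not tested.

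Mouse numbers are shared between the labels but did not pair the libraries: same-numbered libraries had deviations that correlated at -0.34 to 0.10, and no library correlated best with its own number. With the mouse number as a replicate block, 3 of 20 ordered pairs were called, Cartpt along Coch being lost at adjusted p = 0.0561 by edgeR, the calls of Zcchc12 along Crym, Dlk1 and Hap1 along Wfs1 and Lypd1 along Gpr155 also being lost, and the genes called came to 0 along Crym, 3 along Wfs1 and 40 along Coch. With 22 to 105 reads per library, Cartpt carried more counting error than the other members. Most of its spread between mice still lay beyond counting, at 38.1% of a coefficient of variation of 41.1%. With 8 mice per label, no member's fold change is known to better than the intervals given.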
